A study of Homo sapiens with 16 samples.

Results

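The APOBEC3 genes form a family of 7 cytidine deaminases that lie next to each other on chromosome 22: APOBEC3A, APOBEC3B, APOBEC3C, APOBEC3D, APOBEC3F, APOBEC3G and APOBEC3H. They were selected by symbol in a count table of 59428 genes, of which 29329 had at least 1 count. All 7 symbols were in the table, 6 had at least 1 count, and 2 (APOBEC3C and APOBEC3F) passed the filter on low counts in every comparison. RNA was measured by 3′ mRNA sequencing in 2 ovarian serous carcinoma cell lines, OVCAR3 (BRCA1 intact) and UWB1.289 (BRCA1 mutated). Each line was kept for 96 h with the PARP inhibitor olaparib at the IC50 determined for that line, a standard measure of inhibitory dose, or with the solvent DMSO, in 4 replicates per group. OVCAR3 received 7.5 µM and UWB1.289 received 3.5 µM. OVCAR3 grew in RPMI1640 with serum and insulin and UWB1.289 in a blend of MEGM and RPMI1640 with less serum, so the effects of line, BRCA1 mutation, concentration and culture medium cannot be told apart. Each BRCA1 status was represented by 1 line. Total counts per library were 5599571 to 7730228.

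APOBEC3 enzymes turn cytosine into uracil in single-stranded DNA. In infected cells they act against retroviruses and mobile elements by mutating their DNA copies, and several members are induced by interferon. In tumours, APOBEC3A and APOBEC3B are known as sources of C-to-T and C-to-G mutations, and the uracil they leave is removed by the glycosylase UNG.

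In both lines almost all reads counted for APOBEC3 genes were assigned to APOBEC3C and APOBEC3F, and the lines differed in how these were divided. APOBEC3F was lower in UWB1.289 than in OVCAR3 with DMSO (log2 fold change -2.79, SE 0.288), while APOBEC3C was higher (0.99, SE 0.129). No member passed the call rule for olaparib in either line. In the UWB1.289 libraries where 11 of 11 tested interferon-induced reference genes rose with olaparib, APOBEC3C changed by 0.21 (SE 0.137) and APOBEC3F by 0.91 (SE 0.357) on the log2 scale, neither of them called. Among these reference genes, RSAD2 passed the filter on low counts only through the olaparib libraries. APOBEC3F likewise passed it there only through the olaparib libraries, and between the lines with DMSO only through the OVCAR3 libraries. Its direction in both comparisons therefore followed from how it was selected, and its values there are a description.

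Some members resemble each other closely within their coding sequence. Reads of these libraries come from the 3′ ends, which are compared separately below. Each deaminase domain carries a zinc-binding motif in which a histidine and a glutamate are followed by a proline and 2 cysteines. APOBEC3A, APOBEC3C and APOBEC3H had 1 such domain in their canonical coding sequence, and APOBEC3B, APOBEC3D, APOBEC3F and APOBEC3G had 2. The stretches below are the coding bases of the motif in the members with the most reads, and in APOBEC3A for contrast, with the codons of the histidine, the glutamate and both cysteines in capitals. They were read from the plus strand of hg38 with the GENCODE release 44 annotation, at chr22:39017787-39017891 for APOBEC3C, chr22:39044962-39045066 and chr22:39052095-39052199 for APOBEC3F and chr22:38961420-38961530 for APOBEC3A, each within 1 coding exon.
APOBEC3C: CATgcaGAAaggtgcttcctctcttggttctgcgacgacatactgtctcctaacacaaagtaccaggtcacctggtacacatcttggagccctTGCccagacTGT
APOBEC3F, second domain: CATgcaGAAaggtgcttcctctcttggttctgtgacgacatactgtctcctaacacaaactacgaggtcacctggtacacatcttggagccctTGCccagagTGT
APOBEC3F, first domain: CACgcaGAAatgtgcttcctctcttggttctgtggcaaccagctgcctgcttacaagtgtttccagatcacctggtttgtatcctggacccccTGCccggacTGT
APOBEC3A: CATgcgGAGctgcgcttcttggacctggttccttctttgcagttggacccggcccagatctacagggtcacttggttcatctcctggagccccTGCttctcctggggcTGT

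The APOBEC3C stretch matched that of the second APOBEC3F domain at 101 of 105 bases (96.2%), but the first at 79 of 105 (75.2%). The second stretch of APOBEC3D was identical to the second of APOBEC3F (105 of 105 bases), and the first of APOBEC3B to the first of APOBEC3F (105 of 105). The stretch of APOBEC3A was identical to the second of APOBEC3B (111 of 111). APOBEC3G and APOBEC3H stood farther off, with the second APOBEC3G stretch at 77.5% identity to that of APOBEC3A and the APOBEC3H stretch at 61.9% to the second of APOBEC3G.

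The libraries hold tags from the 3′ end of transcripts, so the last 300 bases of each transcript were compared with the genome. APOBEC3C, APOBEC3F, APOBEC3G, APOBEC3H and APOBEC3A shared no base there with a same-strand exon of another gene. For APOBEC3D, 299 of the 300 bases (99.7%) overlapped exons of an annotated readthrough gene that joins it to APOBEC3C. For APOBEC3B, 102 of 300 bases (34.0%) overlapped the antisense gene APOBEC3B-AS1. In windows of 50 bases, 33 of 251 words of APOBEC3B (13.1%) had an exact copy in APOBEC3A, and 48 of 251 of APOBEC3C (19.1%) had 1 on chromosome 22 outside the 7 genes, while the other members had none in the primary assembly. All 251 words of APOBEC3B were also found on an alternate contig of hg38. How the authors' counting treated reads with several positions, overlapping exons or strand is not given in the sources used here, and its part in the counts of APOBEC3B, APOBEC3C and APOBEC3D was not tested.

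The 7 genes all lie on the plus strand of chromosome 22 in hg38 and span 151327 bases, from APOBEC3A (chr22:38952741-38963184) through APOBEC3B (chr22:38982347-38992804), APOBEC3C (chr22:39014257-39020352), APOBEC3D (chr22:39021113-39033277), APOBEC3F (chr22:39040604-39055972) and APOBEC3G (chr22:39077067-39087743) to APOBEC3H (chr22:39097224-39104067). CBX6 and CBX7, both encoding Polycomb chromobox proteins, flank them. Levels changed abruptly along this stretch.

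**Figure D1:**
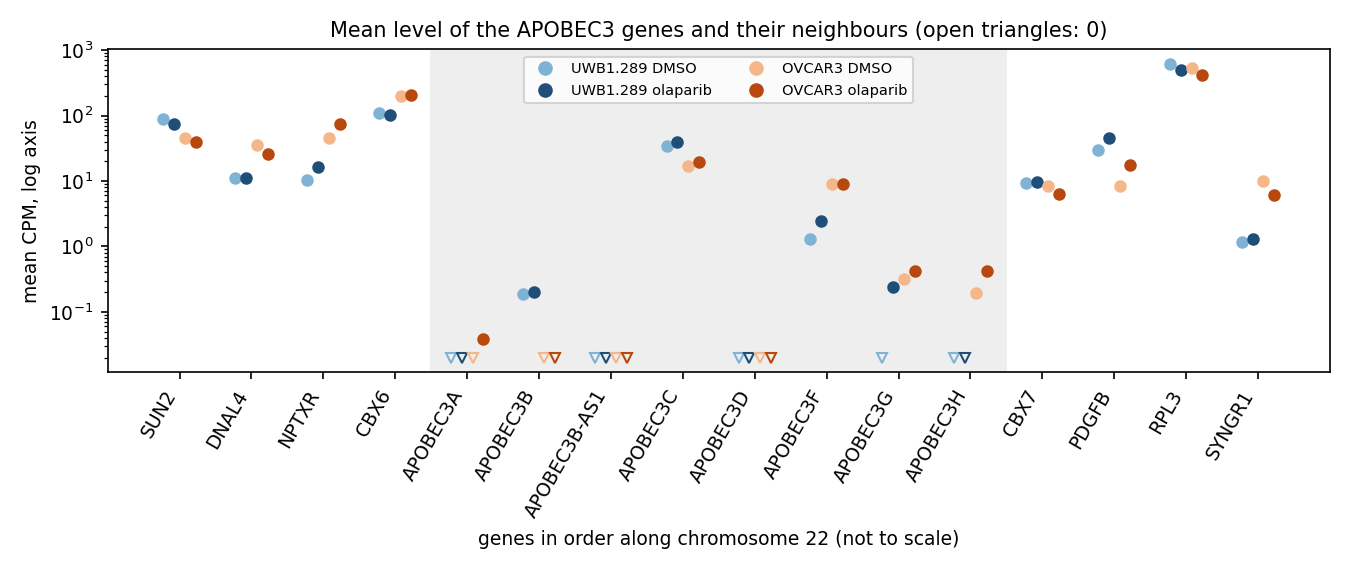
Mean CPM (counts per 1000000 counts of a library, TMM-scaled, log axis, n = 4 libraries per group) of the APOBEC3 genes (grey band) and their neighbours, in their order on chromosome 22. APOBEC3C and APOBEC3F stand out within the band, and open triangles mark groups in which all 4 libraries had 0 counts.

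APOBEC3C, a member with a single deaminase domain and comparatively weak antiviral activity, was the most abundant member in all 4 groups. With DMSO, its level in the 4 UWB1.289 libraries was 28.1, 37.3, 35.8 and 34.0 CPM, and with olaparib 51.7, 39.4, 33.1 and 32.4 CPM. In OVCAR3 it was 18.1, 15.4, 19.7 and 14.7 CPM with DMSO and 19.4, 18.7, 17.0 and 23.2 CPM with olaparib. Every UWB1.289 library was above every OVCAR3 library, and within each line the treatments overlapped. Between the lines with DMSO, 69.4% of all tested genes had groups of 4 without overlap. The means were 33.8 ± 4.02, 39.2 ± 8.94, 17.0 ± 2.32 and 19.6 ± 2.63 CPM (SD, n = 4) in the same order.

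APOBEC3F, a member with a pair of deaminase domains that restricts HIV lacking Vif, had the opposite order of lines. Its level with DMSO was 1.20, 1.17, 1.43 and 1.32 CPM in UWB1.289, from 7 to 10 raw counts per library, and 9.07, 6.11, 9.24 and 11.3 CPM in OVCAR3, from 35 to 79 counts. With olaparib it was 1.98, 3.37, 2.08 and 2.29 CPM in UWB1.289, from 12 to 19 counts, and 11.8, 10.4, 5.40 and 8.48 CPM in OVCAR3, from 38 to 76 counts. All OVCAR3 libraries were above all UWB1.289 libraries, and in UWB1.289 all olaparib libraries were above all DMSO libraries. Groups of 4 without overlap were found for 69.4% of all tested genes between the lines with DMSO. For olaparib in UWB1.289 this share was 14.7%. The means were 1.28 ± 0.121 and 2.43 ± 0.642 CPM in UWB1.289 with DMSO and olaparib, and 8.93 ± 2.14 and 9.02 ± 2.77 CPM in OVCAR3 (SD, n = 4).

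**Figure D2:**
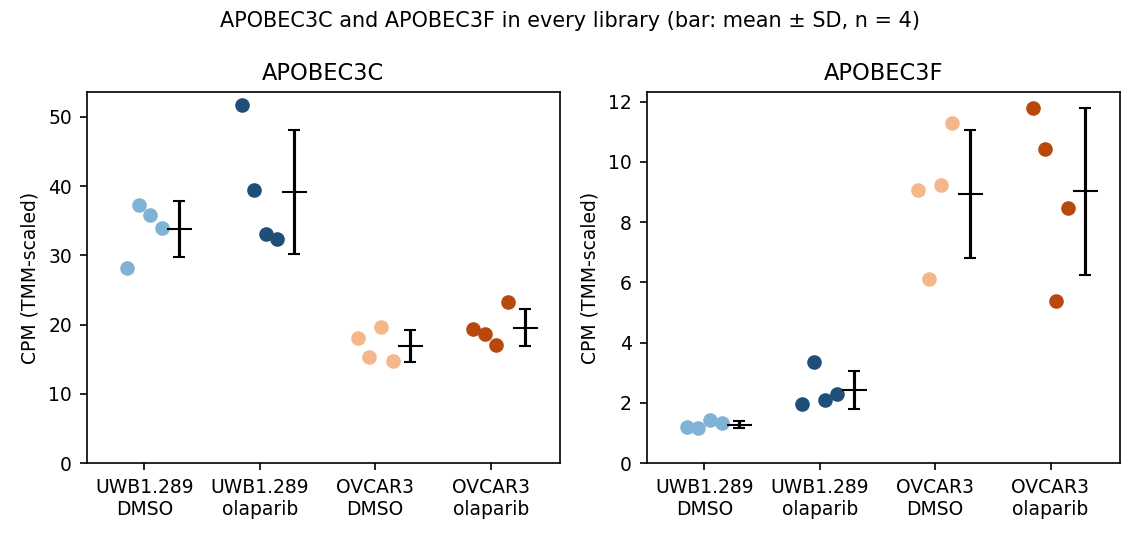
CPM (TMM-scaled) of APOBEC3C and APOBEC3F in each of the 16 libraries by group, on linear axes from 0, with the mean ± SD (n = 4) beside the points. APOBEC3C is above 28 CPM in every UWB1.289 library and below 24 CPM in every OVCAR3 library, and APOBEC3F shows the reverse order of lines.

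The other 5 members were at or near 0 and did not pass the filter in any comparison. APOBEC3D, a further double-domain restriction factor, had 0 counts in all 16 libraries, which together hold 103952457 counts and allow up to 0.0289 CPM over all libraries. APOBEC3A, a strong DNA mutator typical of myeloid cells, had 1 count in all, in OVCAR3 with olaparib replicate 1. Limits from a count of 0 (3 counts) and the intervals given with counts cover counting error only, and bound the level as counted. The 3′ ends of APOBEC3D and APOBEC3B overlap other genes or have copies elsewhere. For these genes the limits therefore do not bound the level of the transcript itself.

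APOBEC3B, the nuclear member most often linked to mutations in tumours, was seen in UWB1.289 and had 0 counts in all 8 OVCAR3 libraries. Its raw counts in UWB1.289 were 4, 0, 1 and 0 with DMSO and 1, 0, 2 and 2 with olaparib. Summed over the 8 UWB1.289 libraries this was 10 counts or 0.194 CPM (exact Poisson 95% interval 0.0930 to 0.357), against a limit of 0.0572 CPM in OVCAR3 for the level as counted.

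APOBEC3G, the interferon-inducible member known as the main target of HIV Vif, had 0 counts in all 4 UWB1.289 libraries with DMSO and 0, 1, 1 and 4 with olaparib. In OVCAR3 its counts were 5, 0, 0 and 3 with DMSO and 2, 1, 2 and 7 with olaparib. The 6 counts in UWB1.289 with olaparib correspond to 0.245 CPM (exact Poisson 95% interval 0.0900 to 0.534), and the limit with DMSO was 0.111 CPM. Groups overlapped in both lines.

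APOBEC3H, a member with a single domain whose antiviral strength varies between human haplotypes, was seen in OVCAR3 and not in UWB1.289. Its counts in OVCAR3 were 0, 2, 3 and 0 with DMSO and 5, 3, 1 and 2 with olaparib, or 0.195 (interval 0.0632 to 0.454) and 0.411 CPM (interval 0.205 to 0.736). All 8 UWB1.289 libraries had 0 counts, which allows up to 0.0582 CPM.

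Without the filter on low counts, a member was fitted only where the libraries compared held at least 1 count, so APOBEC3D was not fitted. None of the others passed the call rule where they were fitted, since their average counts were all below 10. Between the lines with DMSO the fit gave adjusted p-values from edgeR of 0.0256 for APOBEC3G (lower in UWB1.289), 0.0782 for APOBEC3H (lower) and 0.0818 for APOBEC3B (higher), and for APOBEC3G with olaparib in UWB1.289 0.223. In each of these 1 group was at 0 in all 4 libraries, so the fitted fold changes depend on how a 0 is treated and are not given.

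**Figure D3:**
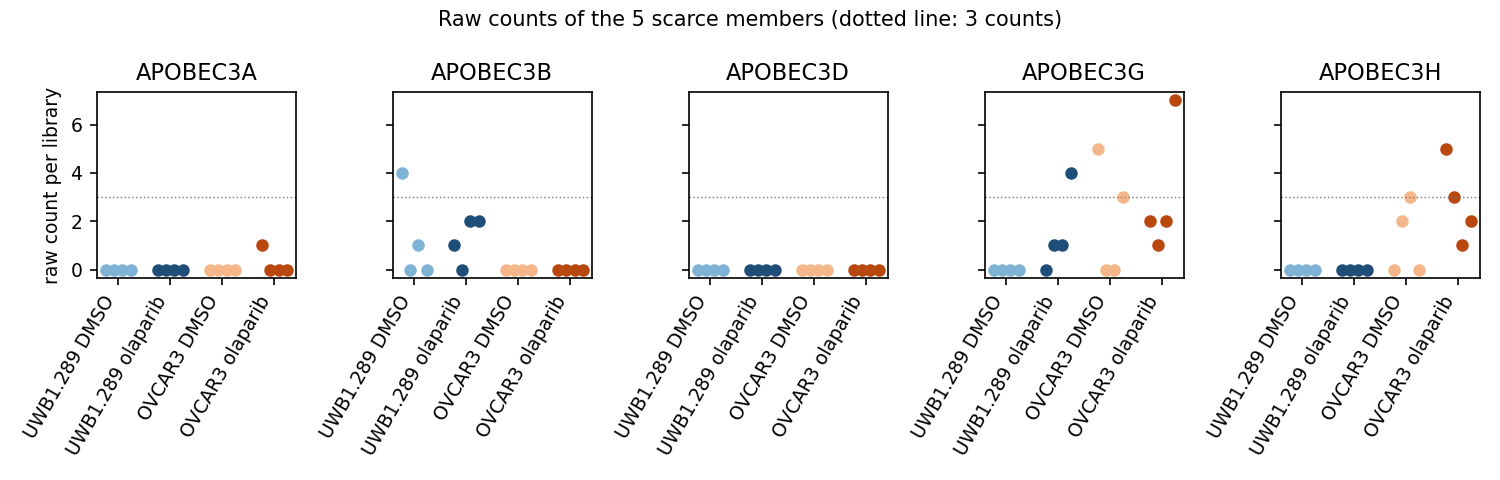
Raw counts of APOBEC3A, APOBEC3B, APOBEC3D, APOBEC3G and APOBEC3H, 1 point per library, 4 libraries per group, with a dotted line at 3 counts. No library exceeds 7 counts, APOBEC3B is seen only in UWB1.289 libraries and APOBEC3H only in OVCAR3 libraries.

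Taking all APOBEC3 counts of a group as 100%, APOBEC3C held 95.8% of 933 counts in UWB1.289 with DMSO (exact binomial 95% interval 94.3 to 97.01) and 63.98% of 683 in OVCAR3 with DMSO (60.3 to 67.6). With olaparib APOBEC3C held 93.2% of 1025 counts in UWB1.289 and 66.7% of 802 in OVCAR3. These shares and intervals take the counts as they were assigned. The part of read assignment in the counts of APOBEC3B, APOBEC3C and APOBEC3D was not tested. APOBEC3F held 3.64% and 34.1% with DMSO in UWB1.289 and OVCAR3, and 5.76% and 30.3% with olaparib. By library, the APOBEC3F share was 3.03 to 7.85% over all UWB1.289 libraries and 23.6 to 42.7% over all OVCAR3 libraries, so the lines did not overlap. The summed level of the family was 35.3 ± 3.8 and 42.0 ± 8.61 CPM in UWB1.289 with DMSO and olaparib and 26.4 ± 3.27 and 29.5 ± 4.63 CPM in OVCAR3 (SD, n = 4).

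The ratio of APOBEC3C to APOBEC3F in CPM was 26.5 ± 3.78 in UWB1.289 with DMSO and 17.0 ± 6.37 with olaparib, and 1.99 ± 0.505 and 2.33 ± 0.734 in OVCAR3 (SD, n = 4). A 3′ tag library gives about as many tags from a long as from a short transcript, so CPM was the main scale. Per kilobase of the canonical transcripts (2.644 kb for APOBEC3C and 4.496 kb for APOBEC3F), the level of APOBEC3C with DMSO was 12.8 CPM per kb in UWB1.289 and 6.42 in OVCAR3, and that of APOBEC3F 0.285 and 1.99. APOBEC3C stayed above APOBEC3F in every group on this scale too.

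The comparison of the lines with DMSO asks how the family differs at baseline. A gene was called at an edgeR adjusted p below 0.1, a fold change beyond 2 and an average count above 10, and 1 of the 2 tested members was called, against a background of 38.4% of 13366 tested genes (18.7% higher and 19.7% lower in UWB1.289). APOBEC3F was lower in UWB1.289 at 0.144 of its OVCAR3 level (edgeR adjusted p = 4.98e-10, log2 fold change -2.79, SE 0.288). It passed the filter on low counts there only through the OVCAR3 libraries (35 to 79 counts, against 7 to 10). A lower level in UWB1.289 therefore followed from how it was selected, and its value is a description. In the fit without that filter APOBEC3F was at -2.77 (SE 0.297). APOBEC3C was 1.98 times higher (edgeR adjusted p = 5.63e-08), just under the 2-fold limit, and so was not called. At the same adjusted p with no limit on the fold, 78.5% of all tested genes passed, and both members did. The groups of 4 did not overlap for either gene, as for 69.4% of all tested genes. Without UWB1.289 DMSO replicate 1, OVCAR3 DMSO replicate 1 or OVCAR3 DMSO replicate 3, the log2 fold change of APOBEC3C became 1.08, 1.01 or 1.06 and it was called, so the number of called members rose from 1 to 2.

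Olaparib in UWB1.289 asks whether PARP inhibition moves the family in BRCA1-mutated cells. Of the 2 tested members 0 were called, against 2.21% of 12748 genes (1.93% higher and 0.282% lower). At an unadjusted p below 0.05 it was 1 member, APOBEC3F, and DESeq2 also called 0. APOBEC3F had a log2 fold change of 0.91 (SE 0.357, 95% interval 0.21 to 1.61, edgeR adjusted p = 0.121), 1.88 times the DMSO level, with no overlap between the groups of 4. Such a lack of overlap was found for 14.7% of all tested genes. APOBEC3F passed the filter on low counts there only through the olaparib libraries (12 to 19 counts, against 7 to 10 with DMSO). A rise of APOBEC3F therefore followed from how it was selected, and its values here are a description. In the fit without that filter APOBEC3F was at 0.89 (SE 0.428). APOBEC3C had a log2 fold change of 0.21 (SE 0.137, 95% interval -0.06 to 0.48, edgeR adjusted p = 0.378), and its highest library, olaparib replicate 1, carried most of it, since the value without that library was 0.05.

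The summed level of 10 leukocyte marker genes moved with olaparib in the same libraries, from 7.64 to 11.6 CPM with DMSO to 15.6 to 20.0 CPM with olaparib in UWB1.289. Of the 10 markers, 7 were at or below 3 counts in every library of each group there, among them CD3E, MS4A1, NKG7 and FCGR3A, and most of the sum came from PTPRC and CD14. Its part in the APOBEC3F value was not tested. In a bulk sample, fewer cells with a transcript and less RNA per cell cannot be told apart.

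Olaparib in OVCAR3 asks the same in BRCA1-intact cells. Again 0 of 2 tested members were called, against 5.23% of 13031 genes (2.9% higher and 2.33% lower), with 0 at an unadjusted p below 0.05 and 0 by DESeq2. APOBEC3F changed by 0.00 (SE 0.232, 95% interval -0.45 to 0.46, edgeR adjusted p = 0.996). APOBEC3C changed by 0.21 (SE 0.144, 95% interval -0.07 to 0.49, edgeR adjusted p = 0.315). The groups overlapped for both genes, while 25.7% of all tested genes had groups without overlap.

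Whether olaparib acted differently in both lines was tested over all 16 libraries. It called 0 of 2 members, against 3.66% of 14243 genes, with 1 member (APOBEC3F) at an unadjusted p below 0.05 and 0 by DESeq2. For APOBEC3F the effect was 0.90 higher in UWB1.289 on the log2 scale (SE 0.422, 95% interval 0.08 to 1.73, edgeR adjusted p = 0.212). For APOBEC3C the difference was 0.01 (SE 0.211, 95% interval -0.41 to 0.42, edgeR adjusted p = 1.0). The difference between the lines in their response of APOBEC3F therefore did not pass the correction over all genes.

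In the order of the 4 groups, APOBEC3C fell from UWB1.289 with olaparib to UWB1.289 with DMSO, OVCAR3 with olaparib and OVCAR3 with DMSO. Neighbours within a line overlapped, with differences of 0.19 and 0.20 log2 CPM (two-sided exact permutation p = 0.371 and 0.2). The step between the lines was 0.78 log2 CPM (exact permutation p = 0.0286, adjusted p = 0.0571 over 6 neighbour pairs). For APOBEC3F, both OVCAR3 groups differed by 0.01 log2 CPM (exact permutation p = 0.971), the step to UWB1.289 with olaparib was 1.74 and that to UWB1.289 with DMSO 0.76 (exact permutation p = 0.0286 and adjusted p = 0.0571 for each). With 4 against 4 libraries 0.0286 is the smallest p possible. Paired by replicate number, which the UWB1.289 libraries share weakly in their deviations, APOBEC3F was higher with olaparib in 4 of 4 pairs (exact paired permutation p = 0.125, the smallest that 4 pairs allow) and APOBEC3C in 2 of 4 (exact paired permutation p = 0.75).

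The genes whose log2 CPM followed that of the called member APOBEC3F most closely over the 16 libraries, among 14242 other genes, were GPBP1 (Pearson r = 0.986), ZBTB43 (r = 0.972) and TNKS2, a tankyrase of the PARP family (r = 0.967). The 16 libraries fall into 2 lines that differ in many genes, so these values are a description of a shared order of the libraries.

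Genes of pathways around the APOBEC3 enzymes were taken as lists. The share of all tested genes that were called was 2.21% with olaparib in UWB1.289 and 5.23% in OVCAR3. Between the lines with DMSO it was 38.4%. The interferon reference genes, antiviral genes such as IFIT1 and MX1 that respond to type I interferon, rose in UWB1.289 with olaparib in 11 of 11 tested, with a median log2 fold change of 2.58 against -0.00 over all tested genes. The largest were IFIT1 (3.90, SE 0.142), RSAD2 (3.802, SE 0.236) and MX1 (3.71, SE 0.152). RSAD2 passed the filter on low counts there only through the olaparib libraries (125 to 175 counts, against 4 to 15 with DMSO). A rise of RSAD2 therefore followed from how it was selected, and its value is a description. In OVCAR3 2 of 9 rose, IFIT1 (1.17) and OAS3 (1.16), beside 2.9% of all tested genes, with a list median of 0.80 against -0.01. IFIT1 passed the filter there only through the olaparib libraries (3.74 CPM on average, against 1.65 with DMSO), so its value is a description. With DMSO 6 of 10 were higher in UWB1.289, beside 18.7% of all tested genes, led by OAS2 (8.18, against OVCAR3 libraries at or near 0), IFIH1 (2.77) and ISG15 (2.002). OAS2 passed the filter in that comparison only through the UWB1.289 libraries (83 to 144 counts, against 0 to 1). IFIT1, among the 6, also passed only through the UWB1.289 libraries (6.01 CPM on average, against 1.65 in OVCAR3).

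IRF1, an interferon regulatory factor that binds the promoters of such genes, rose in UWB1.289 with olaparib (1.42, SE 0.130), and in OVCAR3 it was at 0.72 (SE 0.110) and not called. With DMSO, IRF1 was lower in UWB1.289 (-1.28), as was APOBEC3F, and IRF9, a further factor of the interferon response, was higher (1.14). Of 4 interferon transcription factors tested, 2 were called with olaparib in UWB1.289, both higher, and 0 in OVCAR3. Between the lines with DMSO 2 of 4 were higher in UWB1.289 and 1 was lower. For the difference of the olaparib effect 1 was called.

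Of the NF-kB subunits, transcription factors linked in other cells to APOBEC3B, 1 of 5 rose in UWB1.289 (RELB, 1.04) and 2 of 5 in OVCAR3 (RELB, 1.496, and NFKB2, 1.24). Without UWB1.289 DMSO replicate 3, RELB in UWB1.289 was at 0.99 and no longer called. NFKB2 changed by 0.45 in UWB1.289. Between the lines with DMSO 0 of 5 were called, with RELB at 0.67 and NFKB2 at -0.68. APOBEC3B stayed at 0 counts in all OVCAR3 libraries, those with olaparib included. For the DREAM and E2F regulators, which control cell cycle genes and have been linked to APOBEC3B, 0 of 9 tested were called in each of the 4 comparisons. The nearest, RBL2 between the lines with DMSO, was at 0.99, and 1 gene of the list was called there with DESeq2 and when any 1 library other than UWB1.289 DMSO replicate 3 or OVCAR3 DMSO replicate 2 was left out.

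Enzymes that handle the uracil left by APOBEC3 activity formed the next list. Of its 13 genes for uracil excision and lesion bypass 0 were called in either line. UNG, the main uracil glycosylase, had log2 fold changes of -0.19 (SE 0.105) in UWB1.289 and -0.16 (SE 0.0999) in OVCAR3, at adjusted p-values from edgeR of 0.305 and 0.267. With DMSO, XRCC1, a scaffold of single-strand break repair, was higher in UWB1.289 (1.05) and HMCES, which shields abasic sites in single-stranded DNA, was lower (-1.10), while UNG was at 0.49. XRCC1 was at 0.94 and not called without OVCAR3 DMSO replicate 4, and HMCES at -0.997 or -0.92 and not called without UWB1.289 DMSO replicate 3 or OVCAR3 DMSO replicate 2.

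For single-stranded DNA, the substrate of the enzymes, 0 of 10 genes of its binding and of replication stress were called with olaparib in either line. With DMSO 3 of 10 were higher in UWB1.289, beside 18.7% of all tested genes: the checkpoint kinase CHEK1 (1.92) and the subunits of replication protein A RPA1 (1.20) and RPA2 (1.06). Without OVCAR3 DMSO replicate 3 RPA2 was at 0.99 and not called.

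**Figure D4:**
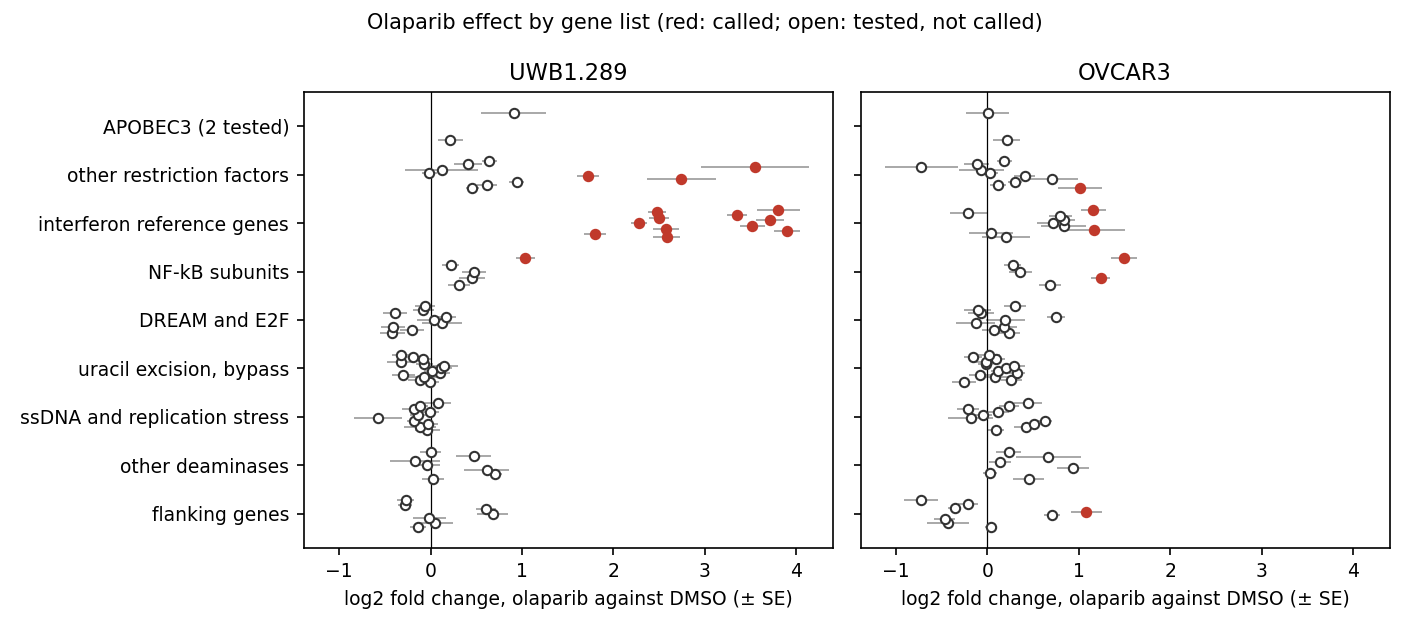
Log2 fold change (olaparib against DMSO, ± SE) of each tested gene by list, in UWB1.289 (left) and OVCAR3 (right), with called genes in red. All 11 interferon reference genes are called in UWB1.289, while APOBEC3C (0.21) and APOBEC3F (0.91) are open there, and at 0.21 and 0.00 in OVCAR3. Among members and called genes, RSAD2, TRIM22, MX2 and APOBEC3F passed the filter on low counts in UWB1.289 only through the olaparib libraries. IFIT1 did so in OVCAR3.

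Retrovirus restriction factors outside the family, which act on the same viruses by other means, rose in UWB1.289 with olaparib in 3 of 10 tested: TRIM22 (3.55, SE 0.591, from 0 to 6 counts per library with DMSO), MX2 (2.74, SE 0.377) and SAMHD1, which lowers cellular nucleotide pools (1.72, SE 0.117). TRIM22 passed the filter on low counts there only through the olaparib libraries (12 to 48 counts), so its value is a description. The same holds for MX2 (7.42 CPM on average with olaparib, against 1.12 with DMSO). Without UWB1.289 olaparib replicate 4 the average count of TRIM22 fell below the limit of 10 and it was not called (3.10). In OVCAR3 1 of 10 rose, BST2, which tethers virus particles (1.01). BST2 was at 0.93, 0.93 and 0.95 and not called without OVCAR3 DMSO replicate 1, DMSO replicate 2 or olaparib replicate 4, and without DMSO replicate 3 the list had 2 calls. With DMSO, 2 of 9 were higher in UWB1.289, BST2 (6.81) and IFITM3 (1.08), and 3 were lower, SERINC5 (-1.90), MX2 (-1.67) and IFITM2 (-1.09). Of all tested genes 18.7% were higher and 19.7% lower in that comparison. SERINC5, MX2 and IFITM2 thus had the sign of APOBEC3F in that comparison and BST2 and IFITM3 that of APOBEC3C. SERINC5, MX2 and APOBEC3F passed the filter there only through the OVCAR3 libraries, so their lower values in UWB1.289 are a description.

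The related genes APOBEC1, APOBEC2 and APOBEC4 had 0 counts in all 16 libraries. Of 7 other nucleotide and RNA deaminases 0 were called with olaparib in UWB1.289 and 0 of 6 tested in OVCAR3, where leaving out DMSO replicate 1 gave 1 call. With DMSO 3 of 7 were higher in UWB1.289, cytidine deaminase CDA (3.74), which acts on free nucleosides, adenosine deaminase ADA (2.02) and the AMP deaminase AMPD3 (1.02). Of all tested genes 18.7% were higher there. CDA passed the filter on low counts in that comparison only through the UWB1.289 libraries (11.2 CPM on average, against 0.845 in OVCAR3). A higher level of CDA therefore followed from how it was selected, and its value is a description. AMPD3 was at 0.96, 0.96 and 0.83 and not called without UWB1.289 DMSO replicate 1, OVCAR3 DMSO replicate 1 or OVCAR3 DMSO replicate 3.

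Neighbours of the cluster were compared in the same way. With DMSO 4 of 8 tested neighbours were called, beside 38.4% of all tested genes: SYNGR1 (-3.07), NPTXR (-2.14) and DNAL4 (-1.70) were lower in UWB1.289, as was APOBEC3F, and PDGFB (1.86) was higher. SYNGR1 passed the filter on low counts there only through the OVCAR3 libraries (52 to 83 counts, against 4 to 15), as did APOBEC3F. The lower levels of SYNGR1 and APOBEC3F therefore followed from how they were selected, and their values are a description. With olaparib 0 of 7 were called in UWB1.289 and 1 of 8, PDGFB (1.08), in OVCAR3. The antisense gene APOBEC3B-AS1 had 0 counts in all libraries.

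Carcinoma markers checked against the labels were present, with 9 of 9 above 3 counts in every OVCAR3 library and 8 of 9 in every UWB1.289 library. The exception in UWB1.289 was WT1, with 0 counts with DMSO and 4 with olaparib. The leukocyte sum was 1.92 to 2.89 CPM in OVCAR3 with DMSO and 2.13 to 4.03 CPM with olaparib. The 4 fibroblast markers summed to 43.8 to 60.8 CPM with DMSO and 25.1 to 31.6 CPM with olaparib in UWB1.289, and to 21.7 to 30.6 and 30.63 to 39.2 CPM in OVCAR3, from collagen genes with DCN and LUM at or near 0, and the 3 endothelial markers to at most 10.03 CPM. Their part in the member values was not tested.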

How the data were processed

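Total RNA of 16 libraries was sequenced by the authors with a QuantSeq 3′ mRNA kit. Single-end reads were trimmed with BBDuk, aligned to hg38 with STAR 2.7.9a in 2-pass mode and counted per gene with featureCounts 2.0.0 and GENCODE release 38. The deposited values are raw whole-number counts, and no column was left unused. Groups came from the labels, 4 libraries each. Nothing beyond a note of repetition says that replicates were separate cultures, so p-values measure the spread between these samples, which may be technical. Within groups, libraries differed by a chi-square of at least 2.89 per gene, and none were duplicates.

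The quasi-likelihood F test of edgeR 4.0.16 in R 4.3.3 was applied to the counts of the whole table, after TMM scaling and filterByExpr, with Benjamini-Hochberg adjustment over all tested genes. Called genes had an average normalized count above 10, changed beyond 1 on the log2 scale and had an adjusted p below 0.1. Intervals are the fold change ± the normal 95% range of its SE. CPM are TMM-scaled, and log2 CPM used a prior count of 2. Group order was tested by two-sided exact permutation. The fits were tested on simulated data. DESeq2 1.42.0 was an alternative, and others are listed in the closing section.

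All 7 members are reported, with the 3 genes most like each called member by Pearson r, and from each list its counts and at most the 3 called genes with the largest change, together with UNG, RELB and NFKB2. Some genes of the lists are not reported here. RBL2, IFITM2 and IFITM3 fall outside this rule and were named after their values were seen. The members and lists were chosen with earlier results of these data known. Sequences and coordinates are from hg38 with GENCODE release 44, and the promoter from RefSeq (GRCh38.p14).

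Replicate numbers of the labels were checked as pairs over 9540 genes. Deviations of same-numbered libraries from their group means correlated at 0.133 to 0.224 in UWB1.289, where every pair was above 0.1 and the numbers were treated as pairs from the data, at 0.0344 to 0.165 in OVCAR3 and at -0.00342 to 0.0251 between the lines. Differently numbered libraries correlated at -0.21 to 0.157 in UWB1.289 and at -0.212 to 0.135 in OVCAR3. In each line 3 of 4 libraries correlated best with their own number.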

Additional observations from a re-analysis of the deposited data

Results flagged for a closer look

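The olaparib effect differed between the lines, by the test of the difference over all 16 libraries (edgeR quasi-likelihood test), for genes named from the lists around the family and for neither APOBEC3C nor APOBEC3F. The difference, UWB1.289 minus OVCAR3 on the log2 scale, was 3.00 for RSAD2 (SE 0.624), 2.92 for MX1 (SE 0.210) and 2.81 for IFIT3 (SE 0.209). RSAD2 was low in OVCAR3, with 3 to 7 counts per library with DMSO and 2 to 16 with olaparib, and it passed the filter on low counts only in the fits that hold the UWB1.289 olaparib libraries, where it is high. A difference for RSAD2 therefore followed from how it was selected, and its value is a description. Among the restriction factors it was 3.70 for TRIM22 (SE 0.918), 2.04 for MX2 (SE 0.511) and 1.31 for SAMHD1 (SE 0.165). TRIM22 likewise passed the filter only with the UWB1.289 olaparib libraries (12 to 48 counts), at 0 to 6 counts in UWB1.289 with DMSO and 1 to 13 in OVCAR3, so a difference followed from how it was selected and its value is a description. It was not called without UWB1.289 olaparib replicate 1, 3 or 4 (3.72, 3.82 and 3.23), where its average count fell below 10. With RSAD2 and TRIM22 included through that selection, 10 of 11 interferon reference genes and 3 of 11 restriction factors were called, against 3.66% of all tested genes. Groups of 4 libraries of APOBEC3C and APOBEC3F were also tested for a library far from the others, and 0 of 8 groups held 1.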

How the results depend on the processing

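No alternative called a member for olaparib in either line or for the difference between the lines. For the lines with DMSO, the number of called members was 0 with an average count above 50 (APOBEC3F at -2.79 not called), 2 with no fold limit (APOBEC3C at 0.99 called) and 2 with no filter on low counts (APOBEC3C at 1.01 called), against 1. With the replicate block no call of a member in the edgeR fits changed, and in the exact test of group order, paired by number (an alternative chosen after seeing the data), the APOBEC3F step of 0.76 within UWB1.289 no longer passed, with 4 pairs too few to reach a p below 0.125. APOBEC3F in OVCAR3 turned to -0.0138 with the block, and the APOBEC3C difference between the lines to -0.0103 with the block, -0.00936 with DESeq2 size factors, -0.00940 with DESeq2 and -0.0341 with no filter, all near 0. The ratio of APOBEC3C to APOBEC3F per kb was 45.1, 28.9, 3.38 and 3.97 in UWB1.289 with DMSO and olaparib and OVCAR3 with DMSO and olaparib. Leaving out 1 library at a time, log2 fold changes with olaparib in UWB1.289 were 0.05 to 0.29 for APOBEC3C and 0.72 to 0.996 for APOBEC3F (edgeR adjusted p 0.119 to 0.284), in OVCAR3 0.11 to 0.29 and -0.15 to 0.20. APOBEC3F in OVCAR3 was below 0 without DMSO replicate 2, olaparib replicate 1 or olaparib replicate 2. Between the lines with DMSO they were 0.92 to 1.08 (1 to 2 members called) and -2.94 to -2.66, and for the difference of effects -0.16 to 0.10 and 0.72 to 1.06. Called genes in all numbered 282, 682, 5126 and 522 in UWB1.289, OVCAR3, the lines and the difference, 141, 285, 3244 and 298 with an average count above 50, and 1760, 4066, 10497 and 1522 with no fold limit. The causes were not tested beyond what each setting adds or removes by construction. At 7 to 19 counts per library, APOBEC3F in UWB1.289 carries a large counting error, and no change in the other 5 members was detectable at the counts given. How the authors' read assignment bears on their counts was not tested.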

Other observations

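RefSeq's promoter table (GRCh38.p14, 250 bases before to 50 after a start) matched 1 of the 7 members, APOBEC3H, at chr22:39096994-39097293. Of 6 motifs searched on both strands, its window held part of the kappa B site (GGGANNNCC), on the minus strand at 87 bases before the start, as did 22.9% of 35116 promoters. It held none of GAAANNGAA (8.1% of promoters), TTCNNNGAA (7.7%), TTTGAA (15.2%), TTTGGCGC (0.7%) or TTTCCCGC (1.6%). This describes the letters of the window and not a binding site.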
